A study of Mus musculus with 48 samples.

Results

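The thalamus markers Tcf7l2, Lef1, Rora, Slc17a6, Ramp3 and Prkcd were followed across the mRNA arrays of mouse brain. They are 6 of the 19752 gene symbols that the arrays name through a RefSeq transcript, and where a gene had several probes the one brightest on average across the 24 arrays was read. The study set male wild-type (WT) C57BL/6J mice beside male Tg2576 mice, whose strain is labelled Tg(APPSWE)2576Kha, at 10 and at 17 months of age. Tg2576 mice carry a human APP transgene with the Swedish mutation under the hamster prion protein promoter, which is active in neurons across the brain. Total RNA came from the cortex or from the whole brain, which gave 8 groups of genotype, tissue and age with 3 arrays in each. The genes were chosen by their values on these arrays, since earlier results of these data had shown thalamus markers moving in the cortex, so their values in the cortex at 10 months and the way they moved together in the cortex are given as a description, without a test. The cortices of 17 months had been seen as well, so the tests that use them are not independent of the choice of genes.

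The thalamus is the relay between the sense organs and the cortex, and its excitatory neurons differ from those of the cortex in the transcription factors and in the vesicular glutamate transporter that they use. Tcf7l2 and Lef1 are the DNA-binding partners of beta-catenin at the end of the Wnt pathway, and both are kept on in thalamic neurons of the adult. Slc17a6 encodes VGLUT2, the glutamate transporter of most subcortical excitatory neurons, whereas most neurons of the adult cortex use VGLUT1. None of the 6 genes is confined to the thalamus: Tcf7l2 is also found in oligodendrocyte precursors, Lef1 in brain endothelium, and Rora in cortical layer 4 and in Purkinje cells.

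Tcf7l2 and Lef1 bind a core that reads CTTTGA on one strand, and Rora binds a site that holds AGGTCA, so the windows from 250 bases before to 50 bases after each RefSeq start (GRCm38.p6) were searched for these letters on both strands. All 6 genes had an entry, with 12 windows between them. The TCF/LEF core was present in 2 of the 12 windows, of Prkcd and of Lef1, and in 16% of all 32851 windows. The letters AGGTCA were in 0 of the 12 and in 16.3% of all windows, and the reverse of the core, TCAAAG, can share its first 3 letters with their end. The 4 windows below are the first listed for Tcf7l2, Slc17a6 and Prkcd, which moved closely together in the cortex, and the Lef1 window with the core. Capitals mark the core, which reads TCAAAG on the strand shown.

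Tcf7l2, chr19:55741560-55741859, plus strand: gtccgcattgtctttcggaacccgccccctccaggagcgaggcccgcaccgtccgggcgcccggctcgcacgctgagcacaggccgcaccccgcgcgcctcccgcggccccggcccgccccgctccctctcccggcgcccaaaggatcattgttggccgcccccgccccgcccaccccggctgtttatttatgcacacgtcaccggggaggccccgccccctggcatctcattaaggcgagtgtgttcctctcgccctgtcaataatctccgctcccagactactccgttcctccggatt

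Slc17a6, chr7:51621580-51621879, plus strand: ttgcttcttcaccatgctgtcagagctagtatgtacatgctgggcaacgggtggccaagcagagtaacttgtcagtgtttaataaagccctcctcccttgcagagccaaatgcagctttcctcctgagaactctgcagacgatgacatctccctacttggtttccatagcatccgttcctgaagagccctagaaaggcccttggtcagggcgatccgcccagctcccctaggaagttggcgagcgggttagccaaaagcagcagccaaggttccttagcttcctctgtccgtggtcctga

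Prkcd, chr14:30626159-30626458, minus strand: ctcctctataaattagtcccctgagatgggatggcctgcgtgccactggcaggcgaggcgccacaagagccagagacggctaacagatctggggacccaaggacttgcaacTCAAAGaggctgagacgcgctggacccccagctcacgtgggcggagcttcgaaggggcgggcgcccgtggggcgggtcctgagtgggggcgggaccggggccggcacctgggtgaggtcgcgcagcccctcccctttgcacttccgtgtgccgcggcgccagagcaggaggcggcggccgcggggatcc

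Lef1, chr3:131156044-131156343, plus strand: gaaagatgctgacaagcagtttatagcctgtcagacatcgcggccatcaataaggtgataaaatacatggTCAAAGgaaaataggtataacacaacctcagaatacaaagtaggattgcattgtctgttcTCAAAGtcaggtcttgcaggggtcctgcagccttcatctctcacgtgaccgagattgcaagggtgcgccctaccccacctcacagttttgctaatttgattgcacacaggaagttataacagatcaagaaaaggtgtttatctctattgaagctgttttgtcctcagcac

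The core of the Prkcd window begins at base 112, and the first of the 2 cores of the Lef1 window at base 71. The windows of Tcf7l2 and Slc17a6 hold neither motif, and their GC content is 70% and 53.7%. These matches are a description of the letters, and binding was not measured.

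Values are the log2 intensity of a probe minus the 75th percentile of its array, so that 0 is the brightness below which 75% of the probes of that array lie. The 75th percentile lay between an intensity of 507 and 823.6, and an array had from 34162 to 41103 probes well above its background. The 6 probes were well above background on all 24 arrays and saturated on 0. Because probes differ in brightness at equal amounts of RNA, values are compared between arrays and never between genes. App lay between 5.77 and 6.42, and the genotypes overlapped except in whole brain at 10 months, where Tg2576 mice were at 5.96 to 6.11 and WT mice at 5.77 to 5.82. In that comparison 8.62% of all probes were higher and 9.01% lower without overlap, and the genotypes lay in part on different slides. Whether the App probe reads the human transgene is not given in the sources used here. The arrays lay on 3 slides, the first holding all cortices of 10 months and 2 WT cortices of 17 months, the second the other cortices with the WT and 1 of the Tg2576 whole brains of 10 months, and the third the remaining whole brains. The labels do not say that the 3 samples of a group came from separate animals, so the p values measure only the spread between these samples, which may be technical.

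Tcf7l2 had the widest range of the 6 genes. In WT cortices of 10 months its values were -3.35, -2.79 and -1.67, and in Tg2576 cortices of that age -2.23, -1.63 and -0.64. In WT cortices of 17 months they were -2.72, -2.10 and -0.38, and in Tg2576 cortices -0.81, 0.06 and 0.92. The highest WT cortex of 17 months was thus 5.06-fold above the lowest of the same group, and the genotypes overlapped at both ages. In whole brain the arrays of a group lay close together: -0.14, 0.01 and 0.10 in WT and -0.01, 0.23 and 0.29 in Tg2576 mice of 10 months, and 0.42, 0.60 and 0.73 in WT and 0.61, 0.68 and 0.97 in Tg2576 mice of 17 months. Of the 12 cortex arrays, 10 were below every whole brain array and 0 above. Both exceptions were Tg2576 cortices of 17 months. In a piece of tissue, fewer cells of a type and less RNA per cell cannot be told apart.

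Lef1, the partner of Tcf7l2 in the same family, parted by age in both tissues, and its tissues overlapped at each age. Its values ranged from -1.64 to -1.43 in WT cortices and from -1.83 to -1.28 in Tg2576 cortices of 10 months. At 17 months they ranged from -1.22 to -0.73 and from -0.91 to -0.46. In whole brain they ranged from -1.61 to -1.39 in WT and from -1.84 to -1.59 in Tg2576 mice of 10 months, and from -0.96 to -0.71 and from -0.90 to -0.80 at 17 months. The 4 groups of 17 months had the 4 highest means, and the lowest array of 17 months lay above the highest of 10 months.

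Rora, an orphan nuclear receptor of the thalamus and cerebellum, spanned only 0.99 to 2.15. The values were 1.55, 1.63 and 1.70 in WT cortices and 1.37, 1.48 and 1.5 in Tg2576 cortices of 10 months, which did not overlap, with the Tg2576 arrays lower. At 17 months the order was the other way, with 0.99, 1.36 and 1.82 in WT and 1.58, 1.92 and 2.15 in Tg2576 cortices, and there the groups overlapped. Whole brain arrays ran from 1.57 to 2.13.

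Slc17a6 was lower in WT cortex than in WT whole brain, as Tcf7l2 was, on a smaller scale. WT cortices were at 0.54, 1.04 and 1.5 at 10 months and at 0.67, 0.77 and 1.59 at 17 months. Tg2576 cortices were at 1.02, 1.13 and 1.64 and at 1.23, 1.83 and 2.30. Whole brains of WT mice were at 1.83, 1.99 and 2.30 at 10 months and at 2.08, 2.25 and 2.39 at 17 months, and those of Tg2576 mice at 1.83, 2.06 and 2.18 and at 1.48, 1.98 and 2.10. Of the 12 cortex arrays 7 lay below every whole brain array, and the WT tissues did not overlap at either age.

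Prkcd encodes protein kinase C delta, which is abundant in sensory relay nuclei. It varied as widely in the cortex as Tcf7l2. WT cortices were at -0.98, -0.02 and 1.13 at 10 months and at -0.48, 0.72 and 1.57 at 17 months, and Tg2576 cortices were at -0.22, 0.98 and 1.32 and at 0.71, 1.5 and 2.68. Whole brain arrays of 10 months lay between 0 and 0.75, and those of 17 months between 0.80 and 1.29. Unlike Tcf7l2, Prkcd was below every whole brain array on 4 cortex arrays and above every one on another 4, so the cortex held both the lowest and the highest values.

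Ramp3, an accessory protein that turns calcitonin-family receptors into receptors for adrenomedullin and amylin, ranged from 1.81 to 3.34. In the cortex it was at 2.04 to 2.32 in WT and 1.81 to 2.58 in Tg2576 mice of 10 months, and at 1.99 to 2.78 and 2.50 to 3.34 at 17 months. In whole brain it was at 2.20 to 2.67 and 2.28 to 2.56 at 10 months, and at 2.64 to 2.82 and 2.72 to 3.00 at 17 months. When the 8 group means of each gene were put in order, the groups next to each other overlapped in all 7 steps for Ramp3, Prkcd and Slc17a6. The groups were separate at 1 of 7 steps for Lef1, between the ages, and at 2 of 7 for Tcf7l2 and for Rora. With the probes used, only Tcf7l2 and Slc17a6 parted the tissues in 3 of the 4 comparisons of genotype and age. Lef1, Prkcd and Ramp3 overlapped in all 4. The other probes of Tcf7l2 overlapped in Tg2576 mice of 10 months, where the probe used did not. Of all probes 12.7% to 17.8% were higher and 14.9% to 20.9% lower in whole brain without overlap in these 4 comparisons.

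**Figure D1:**
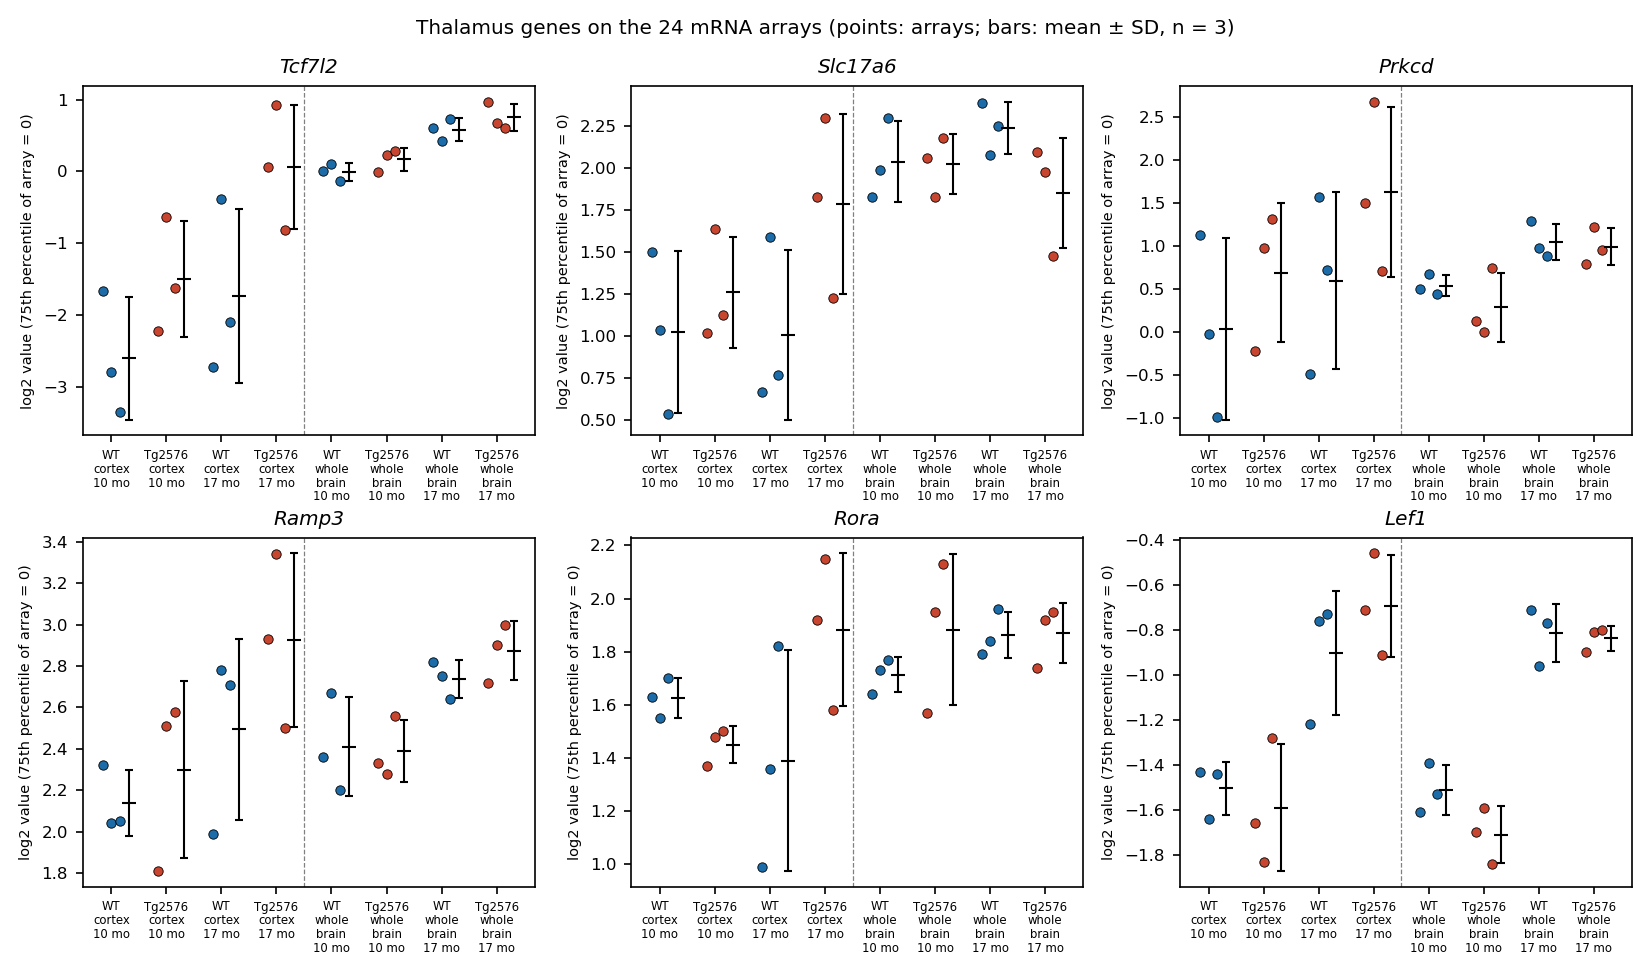
Log2 values of the 6 genes (y axis, 0 is the 75th percentile of the array) in the 8 groups (x axis). Points are arrays, blue for WT and red for Tg2576, the bars give mean and SD of 3 arrays, and the dashed line parts cortex from whole brain: Tcf7l2 and Prkcd scatter over more than a log2 unit within each cortex group, and Lef1 steps up between the ages in both tissues.

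The scatter within a cortex group was large for these genes. Pooled over the 4 groups, the within-group SD in the cortex was 0.95 for Tcf7l2, 0.98 for Prkcd, 0.47 for Slc17a6, 0.38 for Ramp3, 0.26 for Rora and 0.23 for Lef1, against a median of 0.127 over 32201 probes. Tcf7l2 and Prkcd stood at percentiles 99.8 and 99.9 of these probes, and Lef1, the lowest of the 6, at 86.8. In whole brain the same SDs were 0.16, 0.26, 0.23, 0.16, 0.16 and 0.11, at percentiles 39.9 to 89.7.

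The genes scattered together. Each gene was centred on its mean over the 24 arrays, and the 6 were averaged on each array. The genes were not scaled, so Tcf7l2 and Prkcd, with the largest SDs in the cortex, weigh most in this average and in every r with it. Among Tg2576 cortices of 17 months, replicate 2 was the highest of its group in 6 of 6 genes and replicate 3 the lowest in 6 of 6, with averages of 1.01 and -0.10. Among WT cortices of that age, replicate 1 was the lowest in 6 of 6, with an average of -0.95 where replicates 2 and 3 had 0.21 and -0.28. At 10 months WT replicate 1 was the highest in 5 of 6, with an average of -0.23 against -0.79 and -1.06. Tg2576 replicate 1 was the lowest in 5 of 6, with -0.80 against -0.13 and -0.21. The averages thus spread from -1.06 to 1.01 over the cortex, and each of the 4 cortex groups overlapped at least 1 other.

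Tg2576 cortex replicate 2 of 17 months exceeded all 12 whole brain arrays in 4 of the 6 genes, Prkcd, Ramp3, Lef1 and Rora. By contrast, WT replicates 2 of 10 months and 1 of 17 months and Tg2576 replicate 1 of 10 months were below all whole brain arrays in 5 of 6. In whole brain the averages spread only from -0.09 to 0.55, and 6 of 6 arrays of 17 months lay above 6 of 6 arrays of 10 months.

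**Figure D2:**
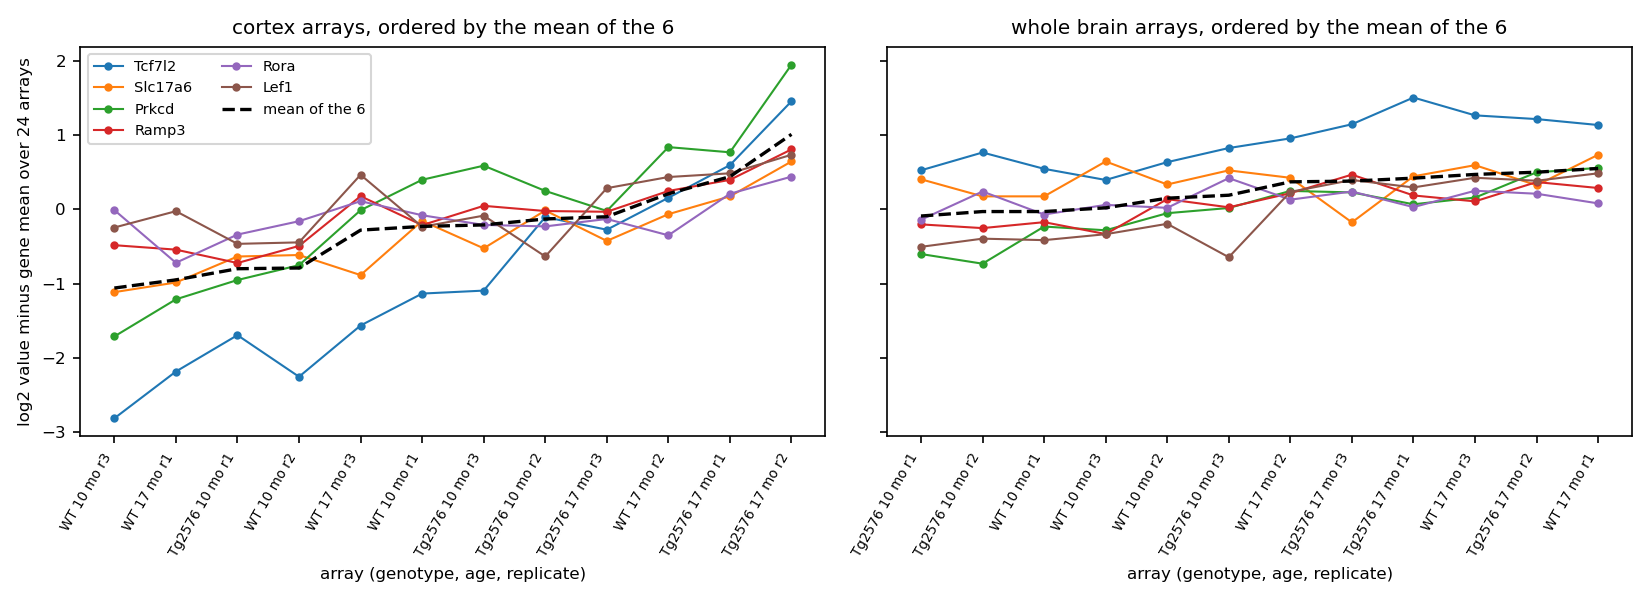
Value of each gene minus its mean over 24 arrays (y axis, log2) on the 12 cortex arrays (left) and the 12 whole brain arrays (right), ordered by the average of the 6 genes (dashed line). The cortex averages run from -1.06 to 1.01 and most genes climb with them, while the whole brain averages run from -0.09 to 0.55.

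Over the 12 cortex arrays the Pearson r of the 15 pairs of genes lay between 0.42 and 0.94 with a median of 0.69, and Spearman's rho between 0.27 and 0.92 with a median of 0.58. These points share tissue, slides and the scaling of the array, and the pairs share genes. Without the 2 arrays farthest from the median of the first gene the r ran from -0.06 to 0.87, and 13 of 15 were above 0. The 2 pairs below 0 were Rora with Tcf7l2 and with Slc17a6. Taken as deviations from the group means, which removes genotype and age, the r ran from 0.32 to 0.97 with a median of 0.73. Tcf7l2 and Slc17a6 had the closest tie, at 0.97, followed by 0.90 for Tcf7l2 with Prkcd and for Ramp3 with Prkcd. The r within 1 age were taken on the values themselves, so they include the genotype difference. Within the 6 cortex arrays of 17 months all 15 r were above 0, from 0.68 to 0.99. Within the 6 of 10 months they ran from -0.44 to 0.91 with a median of 0.24, with 10 of 15 above 0. The r of Tcf7l2, Slc17a6 and Prkcd with each other were 0.83 to 0.91 there, whereas Rora with Tcf7l2 was at -0.44. In whole brain the r of the deviations ran from -0.27 to 0.72 with a median of 0.12. The pair of Ramp3 and Prkcd had the 0.72, and Tcf7l2 with Slc17a6 was at 0.27.

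**Figure D3:**
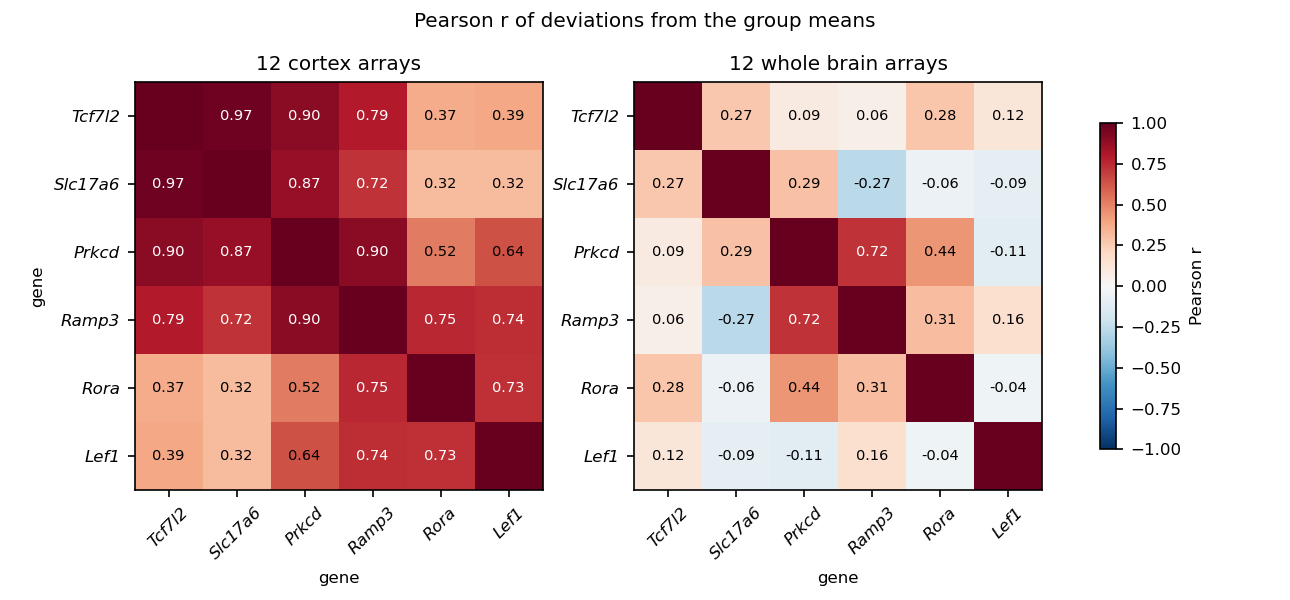
Pearson r between the deviations of 2 genes from their group means, over 12 cortex arrays (left) and 12 whole brain arrays (right), with the value in each cell and colour from -1 (blue) to 1 (red). The 15 pairs lie between 0.32 and 0.97 in the cortex and between -0.27 and 0.72 in whole brain.

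**Figure D4:**
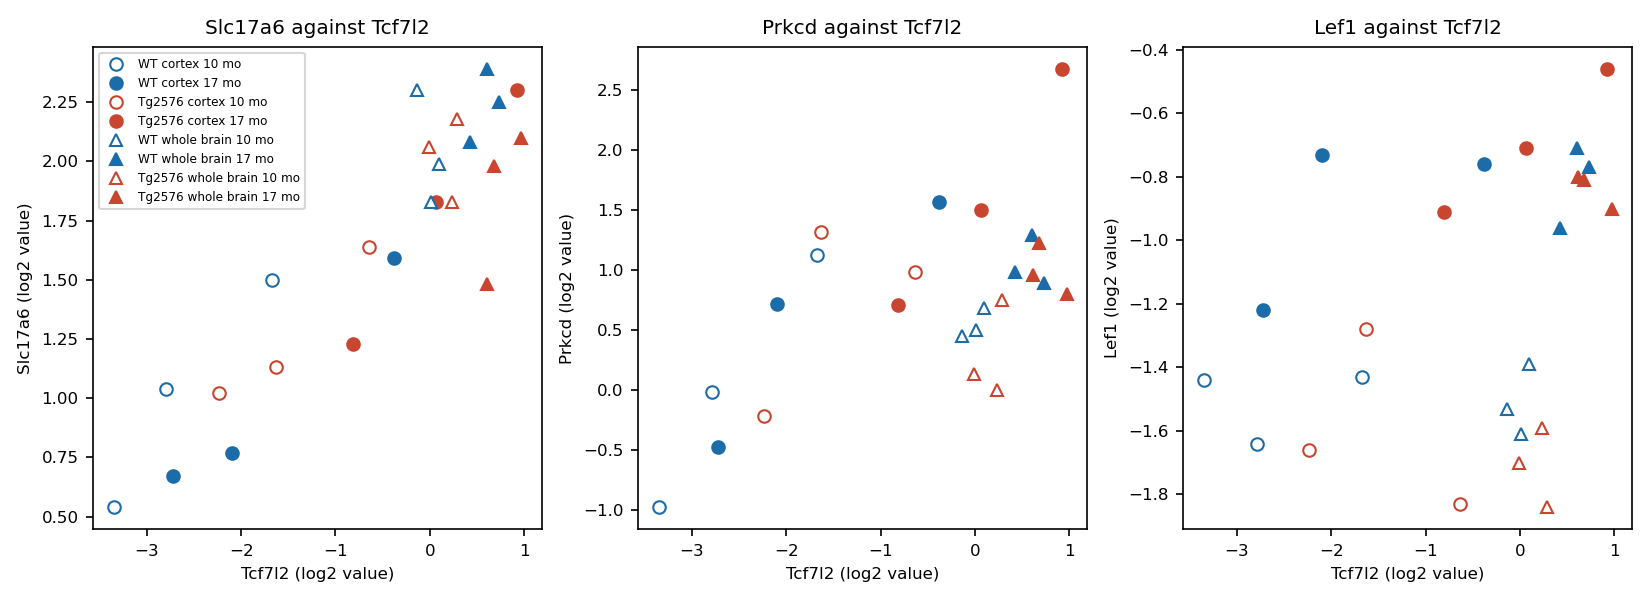
Slc17a6, Prkcd and Lef1 (y axes, log2 values) against Tcf7l2 (x axes, log2 values), 1 point per array, with circles for cortex, triangles for whole brain, open symbols for 10 months and filled ones for 17 months. Slc17a6 and Prkcd rank with Tcf7l2 along the cortex arrays, with r of 0.94 and 0.91, while Lef1 parts by age.

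The means of other gene lists, of other regions and of relatives of the 6 genes, moved with the 6 in the cortex in part. The mean of 12 other thalamus genes, of which Gbx2, Lhx9 and Shox2 are transcription factors of the developing thalamus, had an r of 0.82 with the mean of the 6 as deviations from the group means. Among the relatives, the mean of the vesicular glutamate transporters Slc17a7 and Slc17a8 had 0.93. Of these 2 genes 1 was above 0 between the genotypes in the cortex at 17 months, so this mean does not speak for each gene. The mean of the ROR and REV-ERB receptors had 0.86 and that of the RAMP receptor system 0.83. Choroid plexus markers had 0.81, midbrain dopamine neuron markers 0.71, hippocampus markers 0.69 and habenula markers 0.68. Lower were hypothalamus markers at 0.48, cerebellum markers at 0.47 and oligodendrocyte markers at 0.38. On the other side of 0 stood endothelial markers at -0.33, cortex markers at -0.43, olfactory bulb markers at -0.47, striatum markers and the TCF/LEF and Wnt pathway both at -0.49, and the protein kinase C family at -0.56.

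The log2 of the summed scaled intensity of the other thalamus genes ran from 3.18 to 3.58 in WT and from 3.45 to 3.8 in Tg2576 cortices of 10 months, and from 3.41 to 4.02 and from 3.81 to 4.41 at 17 months, with 10 or 11 of 12 genes above background on an array. That of the midbrain dopamine neuron markers ran from 3.50 to 3.84 and from 3.59 to 4.4 at 10 months, and from 3.26 to 3.8 and from 3.95 to 5.19 at 17 months, with 6 to 8 of 9 above background. That of the choroid plexus markers ran from 3.82 to 6.02 and from 4.38 to 6.12 at 10 months, and from 3.27 to 4.58 and from 4.55 to 5.96 at 17 months. That of the habenula markers ran from 3.29 to 3.55 and from 3.24 to 3.47 at 10 months, and from 3.30 to 3.50 and from 3.05 to 3.70 at 17 months, with 5 to 7 of 8 above background. At 17 months 7 of the 8 habenula genes were above background on each Tg2576 cortex and 5 or 6 on each WT cortex, and Chrna3 was on none. In these sums the ranges of the genotypes overlapped in each list at 10 months, and at 17 months those of the midbrain markers were apart. In the mean of the genes of a list, each centred over the 24 arrays, it was otherwise. The midbrain markers were apart at 10 months, at -1.57 to -0.86 in WT and -0.73 to -0.15 in Tg2576 cortices, and overlapped at 17 months, at -1.56 to -0.69 and -0.89 to 1.3. The habenula markers were apart at 17 months, at -1.14 to -0.45 and 0 to 1.13. The part of other regions or cells in the values of the 6 genes was not tested.

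Whole brain was set against cortex to see how far the 6 genes part the tissues. At 10 months Tcf7l2 was higher in whole brain by 2.59 in WT and 1.67 in Tg2576 mice, and Slc17a6 by 1.01 and 0.76, without overlap. Rora was higher by 0.44 without overlap in Tg2576 mice and by 0.09 with overlap in WT mice. That makes 2 and 3 of the 6 genes higher without overlap, where 16.5% and 14.8% of all probes were (14.9% and 15.3% were lower without overlap), and these values belong to the description of how the set was picked. Prkcd differed by 0.50 and -0.40, Ramp3 by 0.27 and 0.08 and Lef1 by -0.01 and -0.12, all with overlap. No slide held both tissues of a genotype at 10 months, so slide and tissue cannot be told apart.

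At 17 months in WT mice, Slc17a6 was 2.34-fold higher in whole brain, a difference of 1.23 (SE 0.25), and passed limma's test with an adjusted p of 0.0385. It was the only one of the 6 genes to pass, where 3.86% of 38029 probes passed as higher, 6.45% as lower and 10.3% in either direction. This test uses cortices seen when the genes were chosen, so the call is not independent of that choice. Higher calls were 37.4% of all calls, and 54.4% under median centring. Tcf7l2 differed by 2.32 (SE 0.57), 4.98-fold, and missed the threshold with an adjusted p of 0.0563 by limma. Rora differed by 0.47, Prkcd by 0.45, Ramp3 by 0.24 and Lef1 by 0.09. Slc17a6 and Tcf7l2 were the 2 genes without overlap, where 17.8% of probes were higher and 20.9% lower without overlap. The median of the 6 was 0.46 against -0.02 over all probes. No slide held both tissues of these mice, so slide and tissue cannot be told apart, and with the slide as a random block the adjusted p of Slc17a6 by limma was 0.081. With any 1 array left out Slc17a6 kept its call only without WT cortex replicate 2 (adjusted p 0.0249), where Tcf7l2 passed as well (2.99, adjusted p 0.024). Without WT cortex replicate 3 Rora passed instead (0.69, adjusted p 0.036). The probes that passed numbered 3919, but 2121 without WT cortex replicate 2 and from 3 to 6 without WT cortex replicate 1 or any 1 of the whole brains.

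At 17 months in Tg2576 mice 0 of the 6 passed limma's test, where 0.448% of 38592 probes passed as higher, 1.52% as lower and 1.97% in either direction. Of the calls 22.7% were higher, and 66.7% under normexp. An unadjusted p under 0.05 was found in 0 of the 6 and in 8083 probes. All 6 overlapped, where 12.7% of probes were higher and 16.1% lower without overlap. Tcf7l2 differed by 0.70 (SE 0.41), Slc17a6 by 0.06 (SE 0.30) and Prkcd by -0.63 (SE 0.47), and the median was -0.04. Slide and tissue cannot be told apart here, and with any 1 array left out the probes that passed fell from 761 to between 0 and 69. Whole brain minus cortex was lower in Tg2576 than in WT mice in 6 of 6 genes, by 1.62 in Tcf7l2 and 1.16 in Slc17a6, but the test of that difference gave adjusted p of 0.489 and 0.398 by limma, and 0% of 39146 probes passed it, against 4199 with an unadjusted p under 0.05, 1 of the 6 among them. Without WT cortex replicate 3, 39 probes passed that test.

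The genotypes were compared within each tissue and age. In the cortex at 10 months, Tg2576 minus WT was 1.10 for Tcf7l2, 0.65 for Prkcd, 0.23 for Slc17a6, 0.16 for Ramp3, -0.09 for Lef1 and -0.18 for Rora. Only Rora did not overlap, being lower, as were 8.93% of 39643 probes, and 0 were higher without overlap, where 8.29% of all probes were. At 17 months all 6 differences were above 0, with 1.79 (SE 0.69) for Tcf7l2, 1.03 (SE 0.66) for Prkcd, 0.78 (SE 0.34) for Slc17a6, 0.50 for Rora, 0.43 for Ramp3 and 0.21 for Lef1. By limma 0 of the 6 passed, with adjusted p of 0.521 to 0.704, as 0% of 38905 probes did, and Tcf7l2 was the only one with an unadjusted p under 0.05, as were 3624 probes. The groups overlapped in every gene, where 8.75% of probes were higher and 7.2% lower without overlap. The median was 0.64 against 0.01 over all probes, and 0.43 over the 11 other thalamus genes tested, all 11 of which were above 0 and 0 of which passed. Markers of other regions and cells had medians of 1.26 for the habenula, 1.13 for midbrain dopamine neurons, 1.07 for the choroid plexus, 0.66 for the hypothalamus, 0.29 for oligodendrocytes, 0.22 for the hippocampus and 0.18 for the olfactory bulb. Those of endothelium, cortex, cerebellum and striatum had medians of -0.01, -0.02, -0.12 and -0.16, and 0 passed in each of these lists. Of the habenula genes 5 or 6 were above background on a WT cortex of 17 months and 7 on a Tg2576 cortex. For the midbrain genes these numbers were 6 or 7 and 6 to 8. The habenula and midbrain medians can thus include genes that passed the filter through the Tg2576 cortices alone. Within the second slide, which held 3 Tg2576 and 1 WT cortex of that age, Tcf7l2 differed by 2.16, Slc17a6 by 1.01, Prkcd by 0.91, Ramp3 by 0.21, Rora by 0.06 and Lef1 by 0.04.

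In whole brain the genotypes lay close. At 10 months the 6 differences ran from -0.25 in Prkcd to 0.18 in Tcf7l2, and at 17 months from -0.39 in Slc17a6 to 0.17 in Tcf7l2. By limma 0 of the 6 passed at either age and 0 had an unadjusted p under 0.05, where 0% of 38127 and 0.0027% of 36990 probes passed and 4330 and 4805 had an unadjusted p under 0.05. The groups overlapped in all 6 genes at both ages, where 8.62% and 12.8% of probes were higher and 9.01% and 9.26% lower without overlap. These statements hold for the probes used, and other probes of Prkcd and Tcf7l2, given below, differed from them. Limma's test of a change of the genotype difference with age passed in 0 of the 6, with adjusted p of 0.469 to 0.98, and in 0% of 38499 probes, against 6451 with an unadjusted p under 0.05 and 0 of the 6 among them. Without Tg2576 replicate 1 of 10 months 719 probes passed it, and 0 of the 6. On the second slide, with 1 Tg2576 and 3 WT brains of 10 months, Tcf7l2 differed by 0 and Prkcd by -0.41. All whole brains of 17 months were on the third slide.

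The ages were compared in whole brain by test. In WT mice Lef1 rose by 0.70 (SE 0.10), 1.62-fold, from 10 to 17 months with an adjusted p of 0.00702, Tcf7l2 rose by 0.60 (SE 0.11), 1.51-fold, with 0.0134, and Prkcd rose by 0.51 (SE 0.12), 1.42-fold, with 0.0304, all by limma. That makes 3 of 6, where 12.7% of 37652 probes passed as higher, 15.1% as lower and 27.8% in either direction. Higher calls were 45.6% of all calls, and 67.1% under median centring. The ages did not overlap in these 3 genes and in Rora, where 21.7% of probes were higher and 27.2% lower without overlap. The other differences were 0.33 for Ramp3, 0.20 for Slc17a6 and 0.15 for Rora, and the median was 0.42 against -0.03 over all probes. With 1 array left out Lef1 and Tcf7l2 kept their calls, Prkcd lost its call in 4 of the 6 fits (adjusted p up to 0.0805), and Ramp3 passed without WT replicate 2 of 10 months (adjusted p 0.0308). The calls of Tcf7l2 and Prkcd ended with all 24 arrays in one limma model (adjusted p 0.408 and 0.509). The probes that passed fell from 10476 to between 5921 and 6260 without any 1 of the brains of 17 months. The WT whole brains of 10 and 17 months were on different slides, so slide and age cannot be told apart.

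In Tg2576 mice Lef1 rose by 0.87 (SE 0.09), 1.83-fold, with an adjusted p of 0.0129, Tcf7l2 by 0.58 (SE 0.13), 1.5-fold, with 0.0409 and Ramp3 by 0.48 (SE 0.12), 1.40-fold, with 0.0465 by limma. That again is 3 of 6, where 6.56% of 37917 probes passed as higher, 5.52% as lower and 12.1% in either direction. Higher calls were 54.3% of all calls, and 68% under normexp. Prkcd differed by 0.70 (SE 0.22) and missed the threshold with an adjusted p of 0.0858 by limma, Rora by -0.02 and Slc17a6 by -0.17. Lef1, Tcf7l2, Ramp3 and Prkcd did not overlap between the ages, where 18.5% of probes were higher and 20.1% lower without overlap. On the third slide alone, with 3 brains of 17 and 2 of 10 months, Lef1 differed by 0.87, Prkcd by 0.62, Tcf7l2 by 0.49 and Ramp3 by 0.46. With the slide as a block, Lef1 kept its call, and Tcf7l2 and Ramp3 had adjusted p of 0.0842 and 0.103 by limma. With any 1 of the 6 arrays left out Tcf7l2 and Ramp3 lost their calls (adjusted p 0.0576 to 0.131), and Lef1 kept its call in 3 of the 6 fits (0.0347 to 0.0541). The probes that passed fell from 4582 to between 42 and 2681 with any 1 array left out.

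In the cortex the ages were described. Lef1 was higher at 17 months without overlap in both genotypes, by 0.60 in WT and 0.90 in Tg2576 mice, and Rora in Tg2576 mice, by 0.43. That makes 1 and 2 of the 6 genes, where 16.3% and 19.2% of all probes were higher and 17.2% and 19% lower without overlap. Tcf7l2 was higher by 0.87 and 1.56, Prkcd by 0.56 and 0.94 and Ramp3 by 0.35 and 0.62, all with overlap. Slc17a6 differed by -0.02 and 0.53, and Rora by -0.24 in WT mice. The 2 WT cortices of 17 months on the first slide differed from those of 10 months by 1.06 in Tcf7l2, 0.51 in Lef1 and -0.46 in Rora. The Tg2576 cortices of the 2 ages were on different slides, so slide and age cannot be told apart.

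**Figure D5:**
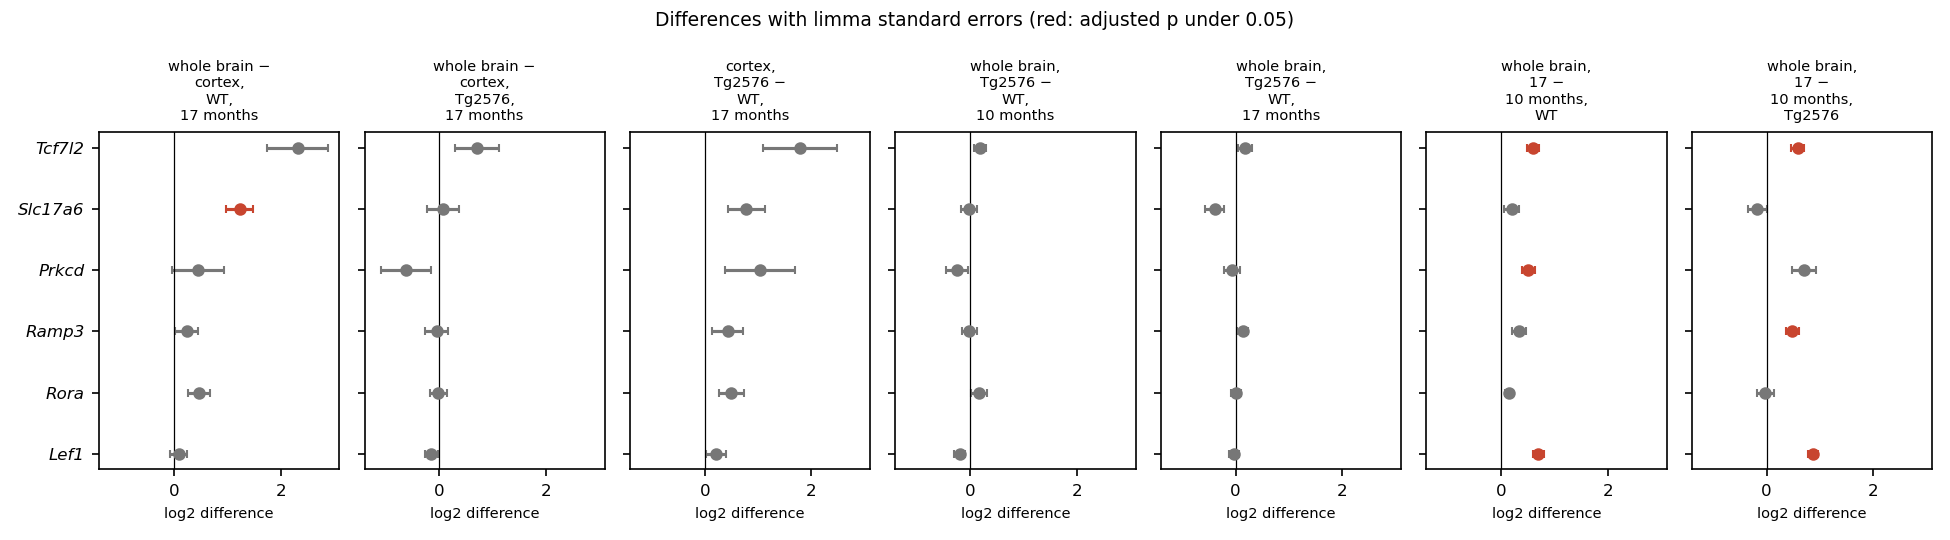
Log2 differences of the 6 genes (x axis) in the 7 tested comparisons, with limma standard errors of 3 against 3 arrays, red where the adjusted p was under 0.05. Red points stand at Slc17a6 for the tissues in WT mice of 17 months and at Tcf7l2, Prkcd and Lef1 (WT) or Tcf7l2, Ramp3 and Lef1 (Tg2576) for the ages in whole brain.

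Other probes of Tcf7l2 and Prkcd differed in part from the ones used. Besides the probe used, 2 Tcf7l2 probes were read, which name other transcripts of the gene. A_55_P2260094 differed by 1.96 between the tissues in WT mice of 17 months and by 1.12 and 0.85 between the ages in WT and Tg2576 whole brain, against 2.32, 0.60 and 0.58 for the probe used, and passed limma's test for both ages with adjusted p of 0.00573 and 0.0198. A_55_P2143724 differed by 0.27, 0.23 and 0.29 in the same 3 comparisons and passed in none. In the cortex at 17 months they differed between the genotypes by 1.79 and 0.31. Between the tissues in Tg2576 mice of 10 months they differed by 0.59 and 0.16, both with overlap, against 1.67 without overlap for the probe used. A_55_P2143724 also overlapped between the tissues in WT mice of 17 months. The second Prkcd probe, A_55_P2008071, differed by -0.15 between the ages in WT whole brain, where the probe used passed at 0.51, so that call rests on 1 of 2 probes. It differed by 0.62 in Tg2576 whole brain, as against 0.70. Between the genotypes in whole brain this Prkcd probe differed by -0.68 at 10 months, where the one used differed by -0.25. A_55_P2260094 differed by -0.32 at 17 months, where the one used differed by 0.17. Both were lower without overlap, as were 9.01% and 9.26% of all probes, with unadjusted p of 0.0219 and 0.0214 by limma. The genotype difference of A_55_P2008071 in whole brain changed by 0.77 with age (unadjusted p 0.0155 by limma). None of these differences passed by adjusted p.

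The relatives and pathway partners of the 6 genes were counted from lists chosen with earlier results known. Of the 20 TCF/LEF and Wnt pathway genes, 9 rose and 1 fell between the ages in WT whole brain and 3 rose and 0 fell in Tg2576 whole brain, with medians of 0.18 and 0.21. Of all probes 12.7% rose and 15.1% fell in WT whole brain, and 6.56% rose and 5.52% fell in Tg2576 whole brain. Tcf7l1, the repressive member of the TCF family, rose by 1.51 (SE 0.12, adjusted p 0.00395) and 1.07 (SE 0.13, adjusted p 0.0145) by limma, and Nkd1, a feedback inhibitor of the pathway, by 0.95 and 0.72. Between the tissues in WT mice of 17 months these same genes passed as the 2 of 20, with 0.75 and 0.41 in favour of whole brain. Of all probes 3.86% passed there as higher and 10.3% in either direction. Between genotypes 0 of 20 passed at any tested tissue and age, where 0% to 0.0027% of all probes passed.

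Of the protein kinase C family, 1 of 11 was higher in whole brain than cortex in WT mice of 17 months, Prkcq by 0.52, where 3.86% of all probes were higher. With age 2 of 11 rose in whole brain of each genotype, where 12.7% of all probes rose in WT and 6.56% in Tg2576 mice. Of the RAMP receptor system 7 of 9 could be tested between those tissues and 1 passed, Ramp2, by 0.33. Calcr, the calcitonin receptor, differed by 0.78 with an adjusted p of 0.552 by limma. Rorb, a ROR of cortical layer 4, differed by -0.55 between whole brain and cortex with an adjusted p of 0.0223 by limma, the opposite side from the 0.47 of Rora. Slc17a7, which encodes VGLUT1, differed by -0.37, and Slc17a8, which encodes VGLUT3, by 0.37, both with adjusted p above the threshold, beside the 1.23 of Slc17a6.

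Of the 12 other thalamus genes 11 could be tested between the tissues in WT mice of 17 months, and 1 passed, Plcb4, by 0.52. Lhx9 differed by 1.13 and Gbx2 by 0.84 without passing, and Shox2 was well above background on 4 of the 6 arrays. Of the habenula markers 4 of 7 passed as higher in whole brain, among them Pou4f1 by 3.02 and Gng8 by 2.07, and of the midbrain dopamine neuron markers 6 of 8, among them Slc6a3, the dopamine transporter, by 4.21, and Ddc by 1.46. Oligodendrocyte markers passed as higher in 4 of 10, and hypothalamus and cerebellum markers in 0 of 10 each, with medians of 1.12 and 1.39. Over all probes 3.86% passed as higher. WT whole brains of 17 months had 7 habenula and 8 midbrain genes above background on each array. WT cortices of that age had 5 or 6 and 6 or 7, so genes could be tested through whole brain alone. In Tg2576 mice of that age 0 genes of the thalamus, habenula, dopamine neuron and oligodendrocyte lists passed between the tissues, where 0.448% of all probes passed as higher and 1.97% in either direction. Of the hypothalamus markers 1 of 10 passed there as higher, and of the hippocampus markers 1 of 8 as lower.

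The genes most like the average of the 6 over the 12 cortex arrays, among 14991 genes above background on all of them, were Clmn and Mrvi1 with r of 0.969, P2rx5 with 0.965, Wnt3 with 0.962, Mctp2 with 0.948, Eno4 with 0.941, Shd and Rgs16 with 0.94, Otx2 with 0.938 and Tuft1 with 0.932. Rgs16, an inhibitor of G protein signalling, is also on the list of other thalamus genes. Otx2, a transcription factor of the choroid plexus and midbrain, had the widest range of these 10 over the cortex arrays, 3.61, and Shd the narrowest, 0.74. Over all 24 arrays Clmn led again with 0.938 among 14592 genes, followed by Otx2 with 0.935 and Zap70 with 0.923, and P2rx5 and Wnt3 were again among the first 10. Such likeness over 12 or 24 arrays is a description of how the values ran side by side.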

How the data were processed

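Total RNA of 24 mouse brain samples was hybridized to 1-colour SurePrint G3 Mouse GE 8x60K arrays. What the authors deposited is scanner output, namely background-subtracted spot intensities from Agilent Feature Extraction 10.7.3.1 (per the submitters' processing notes), which had not been scaled across arrays, and a series table of log2 values. On each array at least 99.8% of the deposited log2 values differed by under 0.01 from log2 intensity less 1 constant, whose rank was 74.97% to 75%. For this report outlier spots were dropped (125 to 228 per array) in R 4.3.3 (package data.table, version 1.17.8), spots of a probe averaged, and the 75th percentile of the array subtracted on the log2 scale. An array held 59305 spots and 55681 probes, 26056 of them named through RefSeq.

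Probes were tested when 2 or more arrays of either group had them well above background. Each comparison used its own 6 arrays, and each interaction 12, in limma 3.58.1 (lmFit and eBayes) with Benjamini-Hochberg adjustment over all probes at 0.05. The code was tested on simulated data. Precision is limited by having 3 arrays in a group. The members and lists were chosen with earlier results of these data known. Named genes are the members, up to 4 genes per list by their tissue difference in WT mice of 17 months, the 10 genes most like the members, and further list genes named after their values were seen. No pair of arrays of 1 group looked like the same sample, the SD of their differences being 0.196 to 0.347. The miRNA arrays were not used here. Alternatives were quantile normalization, median centring, normexp on median spot signals with an offset of 50, the authors' log2 values, no filter, all 24 arrays in one model, a block for the replicate number or for the slide, the mean over the probes of a gene, the methods' t-test, and omission of single arrays.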

Additional observations from a re-analysis of the deposited data

How the results depend on the processing

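With 3 arrays per group, calls near the threshold are the first to change. Of the 6 genes, 1 passed between the tissues in WT mice of 17 months, and 2 passed under median centring, normexp, all 24 arrays in one model and the methods' t-test unadjusted, while 0 passed with no filter, with the replicate block, with the slide as a random block and under the methods' t-test after Benjamini-Hochberg. Between the ages 3 passed in WT whole brain, but 1 with all 24 arrays in one model and 1 with the replicate block. Prkcd also lost its call there with no filter (adjusted p 0.075 by limma) and with the mean over its probes. Under the methods' t-test after Benjamini-Hochberg its adjusted p was 0.0772. In Tg2576 whole brain 3 passed, but 1 under median centring, with all 24 arrays in one model, under the methods' t-test after Benjamini-Hochberg and with the slide as a block, and 0 with the replicate block. Ramp3 also lost its call there under quantile normalization (adjusted p 0.0557 by limma). The causes were not tested. With each array omitted in turn these counts ran from 0 to 2, from 2 to 4 and from 0 to 1. The replicate numbers do not pair the samples, as in no comparison did all 3 pairs correlate above 0.1, and the block changed no other count of these genes. Under it Tcf7l2 and Prkcd in WT whole brain had adjusted p of 0.0597 and 0.0681 by limma between the ages, and Lef1 in Tg2576 whole brain 0.0816. Lef1 in WT whole brain kept its call in all 16 alternatives, with p from 0.00143 to 0.0423, while Prkcd there differed by 0.18 with the mean over its probes (adjusted p 0.277 by limma).

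Counts over all probes moved more. Between the tissues they were 3919 in WT mice of 17 months, and 8245 with all 24 arrays, 10609 by the unadjusted t-test, 2490 with the mean over probes, 1356 by the adjusted t-test, 798 with the slide as a random block, 3 with no filter and 2 with the replicate block. In Tg2576 mice they were 761, and 7506 by the unadjusted t-test, 7208 with no filter, 3889 with all 24 arrays, 2763 under normexp, 470 with the mean over probes, 11 by the adjusted t-test and 0 with the replicate block. Between the ages they were 10476 in WT whole brain, and 5244 with no filter and 4760 with the replicate block. In Tg2576 whole brain they were 4582, and 10917 by the unadjusted t-test, 10148 with all 24 arrays, 10142 with no filter, 7324 under normexp, 2774 by the adjusted t-test, 1852 with the slide as a block and 13 with the replicate block. Between the genotypes they were 0, 0 and 1, and 3353, 3742 and 4294 by the unadjusted t-test, with the slide as a block 43 in cortex and 6 in whole brain of 10 months, and with all 24 arrays 80, 13 and 1. The tests of a difference between differences passed in 0 probes, but by tissue and genotype in 62 with the slide as a block and 13 with all 24 arrays, and by genotype and age in 9 and 10. With single arrays omitted the counts ran from 3 to 5351 and from 0 to 69 between the tissues in WT and Tg2576 mice, from 5921 to 7861 and from 42 to 2681 between the ages, from 0 to 1 at most between the genotypes, and from 0 to 39 and from 0 to 719 for the differences between differences.

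All differences that changed sign were uncalled. In whole brain at 10 months the genotype difference became 0.0295 in Ramp3 and 0.0331 in Slc17a6 under median centring and 0.00788 in Ramp3 under normexp, and with the slide as a block -0.000909 in Tcf7l2, -0.138 in Rora and 0.0168 in Slc17a6. At 17 months it became -0.0307 in Rora under median centring, 0.0276 in Lef1 and -0.063 in Rora under normexp, and -0.0393 in Tcf7l2 and 0.0142 in Prkcd with the mean over probes. Its difference between the ages became 0.00407, 0.0433 and 0.171 in Tcf7l2 under quantile normalization, normexp and the slide block, and 0.144 in Rora under the slide block. With single arrays omitted, the genotype difference in whole brain ran from -0.127 to 0.11 in Ramp3 and from -0.122 to 0.112 in Slc17a6 at 10 months, and from -0.171 to 0.062 in Prkcd, from -0.103 to 0.0253 in Lef1 and from -0.0337 to 0.0715 in Rora at 17 months. Its difference between the ages ran from -0.118 to 0.0631 in Tcf7l2. The tissue difference at 17 months ran from -0.00951 to 0.386 in Ramp3, from -0.0886 to 0.936 in Prkcd and from -0.0703 to 0.177 in Lef1 in WT mice, and from -0.265 to 0.153 in Ramp3, from -0.167 to 0.114 in Rora and from -0.213 to 0.322 in Slc17a6 in Tg2576 mice. The age difference in Tg2576 whole brain ran from -0.175 to 0.104 in Rora and from -0.295 to 0.0156 in Slc17a6. The mean difference of the 6 genes in the comparisons without a test ran from 0.13 to 0.54 between the genotypes in cortex at 10 months, from 0.56 to 0.97 and from 0.2 to 0.53 between the tissues at 10 months in WT and Tg2576 mice, and from 0.08 to 0.66 and from 0.55 to 1.1 between the ages in cortex, and the median r in cortex from 0.51 to 0.78.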
